A study of Oryctolagus cuniculus with 12 samples.

Results

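The ADAMTS proteases are secreted zinc metalloproteinases that cut the proteins of the extracellular matrix, and 9 of their genes are described here: ADAMTS1, ADAMTS2, ADAMTS3, ADAMTS4, ADAMTS5, ADAMTS6, ADAMTS9, ADAMTS12 and ADAMTS16. They were chosen by gene symbol. All 9 had a row among the 14621 genes of the deposited table, all 9 are annotated there as protein-coding, and all 9 passed the filter on low counts. ADAMTS4 and ADAMTS5 are the aggrecanases, which cut aggrecan, the proteoglycan that gives cartilage its stiffness, and ADAMTS5 is the main one in mouse models of osteoarthritis (OA). ADAMTS1 and ADAMTS9 cut versican, a relative of aggrecan found in loose and fibrous matrix, and can also cut aggrecan. ADAMTS2 and ADAMTS3 trim the amino-terminal propeptide from fibrillar procollagens. ADAMTS6 acts on fibrillin microfibrils, ADAMTS12 can cut the cartilage protein COMP, and ADAMTS16 can cut fibronectin. Loss of aggrecan through the aggrecanases is an early event in OA cartilage, and the inhibitor TIMP3 blocks both of them.

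RNA was sequenced from tissue of the temporomandibular joint of wild-type rabbits, in 12 libraries that form 4 groups of 3. The groups are control superficial zone, OA superficial zone, control condylar cartilage and OA condylar cartilage, where the superficial zone is the fibrous layer at the joint surface. OA followed surgery in which a 2.5 mm punch removed part of the disc at its posterior-lateral side, with the disc attachments left intact. The labels call the replicates biological but give no rabbit age, time after surgery, operation on the controls or tie between a replicate and an animal, so the spread behind the p-values is that of these samples and may be technical.

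Library totals ran from 7326255 to 16769536 counts, and counts of the 9 genes in a library from 1 to 4255. In the OA superficial zone libraries 2 and 3 varied by 2.33 times counting noise, libraries 1 and 2 of its condylar counterpart varied by 2.77 times, and every other within-group pair varied by 42.2 to 924 times. These close pairs were summed and each entered the tests as a single sample, which leaves n = 3 in control and n = 2 in OA. Of the 9 cartilage markers, all 9 were in the table, and their summed level was 9353 to 15750 TPM (transcripts per 1000000) in the OA condylar cartilage, 1283 to 39770 in its control, 2115 to 15450 in the OA superficial zone and 3683 to 9128 in its control. The lowest condylar cartilage value was that of control library 3 and the highest superficial zone value that of OA library 1. By these markers the 2 libraries went against their labels, and they are named so below. By the osteoblast and osteocyte markers they did not, at 10420 and 1291 TPM. Those markers ran from 5728 to 15770 TPM in the condylar cartilage and from 394 to 1291 TPM in the superficial zone. The summed level of superficial zone and fibrous layer markers (6 of 7 in the table) also went against the labels in control. It was 55960 to 74940 TPM in the control superficial zone and 96750 to 200900 TPM in the control condylar cartilage. In OA the zones overlapped, at 41310 to 103300 TPM in the superficial zone and 76340 to 84290 TPM in the condylar cartilage. COL3A1, which is on this list, was lower in the condylar cartilage, as given below, so the sum does not hold for each marker. Results that turn on these 2 libraries are given with and without them. Levels are counts per 1000000 after TMM scaling (CPM), a scaling that sets the bulk of genes equal between libraries. The TMM factor was 0.691 for OA superficial zone 1 and 0.905 to 1.17 for the others, so the CPM of that library stand high beside its TPM.

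Between genes, levels can be compared per length, in the deposited TPM. ADAMTS2, the procollagen-trimming enzyme, had the highest TPM of the 9 in every group, at 152.6 ± 60.4 (SD, n = 3) in the control superficial zone, 138 ± 21.6 (n = 2) in the OA superficial zone, 171.5 ± 64.1 (n = 3) in the control condylar cartilage and 119.7 ± 1.12 (n = 2) in the OA condylar cartilage. It made up 35.3% to 59.5% of the summed TPM of the 9 genes, a sum of 258 to 453 TPM in the libraries. In the control superficial zone ADAMTS1 followed at 45.4 ± 4.15 TPM, then ADAMTS6 at 33.3 ± 7.70 and ADAMTS9 at 29.5 ± 9.35. Below them stood ADAMTS12 at 16.4 ± 5.70, ADAMTS4 at 12.3 ± 2.19, ADAMTS3 at 12.1 ± 3.08 and ADAMTS5 at 8.98 ± 2.44, and ADAMTS16 was last at 2.75 ± 1.48 TPM. From ADAMTS6 down to ADAMTS5 the ranges of mean ± SD of neighbours in this order overlapped.

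In the control condylar cartilage the order by TPM after ADAMTS2 was ADAMTS6 at 58.1 ± 14.4 and ADAMTS9 at 53.2 ± 25.0, then ADAMTS3 at 28.5 ± 10.1 and ADAMTS1 at 23.3 ± 2.92. ADAMTS5 at 11.3 ± 1.94, ADAMTS12 at 10.6 ± 5.75 and ADAMTS4 at 9.88 ± 2.86 lay within their SDs of each other, and ADAMTS16 was at 0.485 ± 0.363 TPM. In the OA condylar cartilage ADAMTS6 (60.9 ± 22.3 TPM) and ADAMTS9 (44.4 ± 4.37 TPM) again followed ADAMTS2, and ADAMTS1 (26.3 ± 1.61), ADAMTS3 (21.1 ± 1.72), ADAMTS5 (14.1 ± 0.147), ADAMTS12 (9.93 ± 1.27), ADAMTS4 (7.24 ± 0.041) and ADAMTS16 (0.627 ± 0.450) came after them. In the OA superficial zone the spread was wide, since ADAMTS1 (40.3 ± 13.7 TPM), ADAMTS9 (27.5 ± 21.6), ADAMTS6 (24.3 ± 14.6), ADAMTS12 (24.1 ± 20.6) and ADAMTS3 (12.8 ± 11.95) were all lower in library 1 than in libraries 2 and 3. ADAMTS5 (13.2 ± 0.678) and ADAMTS16 (12.5 ± 0.415) had close values in its libraries, and there ADAMTS4 was last at 8.68 ± 1.125 TPM.

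**Figure D1:**
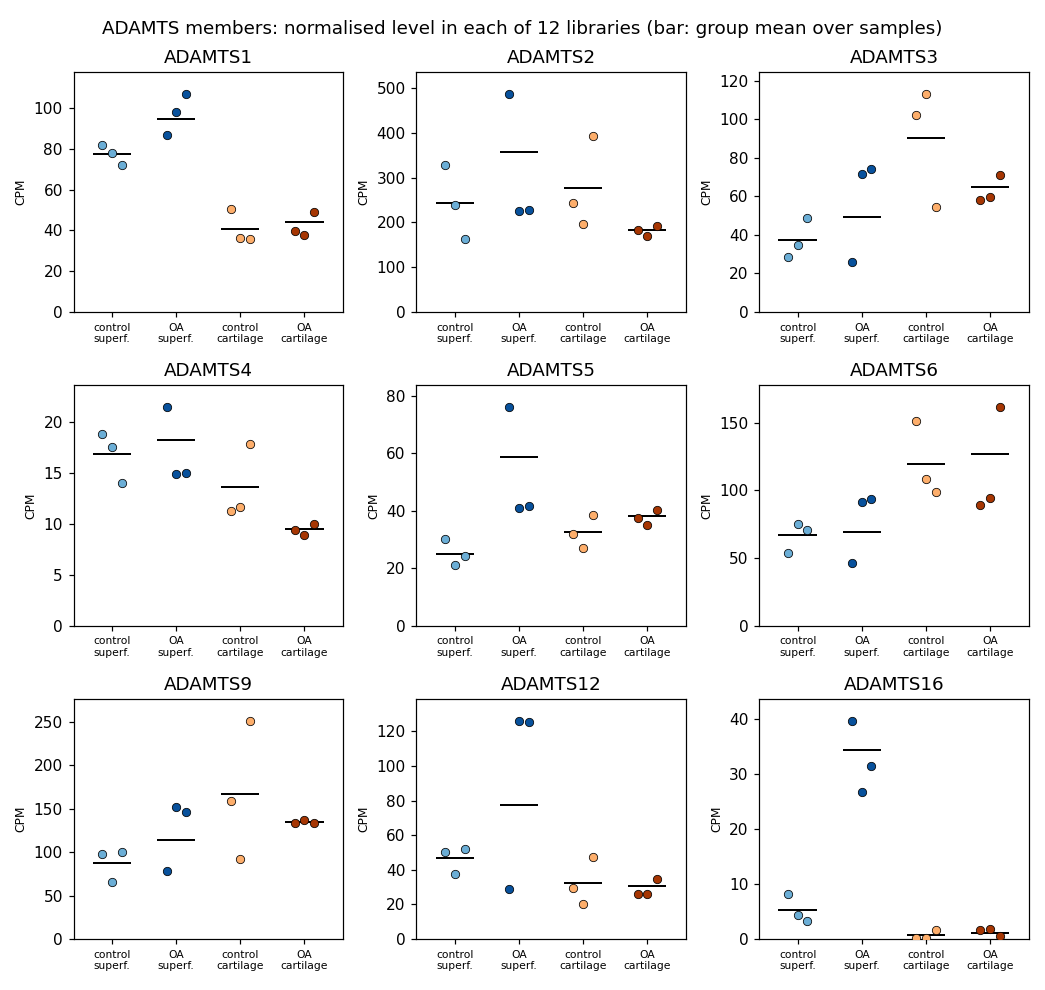
Level of each of the 9 ADAMTS genes in counts per 1000000 after TMM scaling (vertical axis from 0, a scale of its own for each gene). Each point is 1 of 12 libraries, in the order of the replicate numbers, and each bar is the group mean over samples (n = 3 in control, 2 in OA). ADAMTS16 stands between 26.8 and 39.7 CPM in the OA superficial zone and at 8.28 CPM or less elsewhere.

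The aggrecanases had low levels. ADAMTS4 was at 18.9, 17.6 and 14.1 CPM in the control superficial zone and at 21.5, 14.9 and 15.04 CPM in the OA superficial zone. It was at 11.3, 11.7 and 17.9 CPM in the control condylar cartilage and at 9.37, 8.90 and 9.96 CPM in the OA condylar cartilage. The OA values lay below all control values in the condylar cartilage, while in the superficial zone OA library 1 was above all controls and the groups overlapped. ADAMTS5 was at 30.1, 20.9 and 24.1 CPM in the control superficial zone and at 75.9, 41.0 and 41.5 CPM in the OA superficial zone, where it was highest in library 1. It was at 32.0, 26.8 and 38.3 CPM in the control condylar cartilage and at 37.2, 35.1 and 40.4 CPM in the OA condylar cartilage. The groups did not overlap in the superficial zone and did overlap in the condylar cartilage.

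Within each library the balance of the 2 aggrecanases can be read without any scaling between libraries, as the TPM of ADAMTS5 divided by that of ADAMTS4. This ratio was 0.774, 0.579 and 0.832 in the control superficial zone, against 1.73, 1.34 and 1.34 in the OA superficial zone. It was 1.37, 1.11 and 1.04 in the control condylar cartilage and 1.93, 1.91 and 1.97 in the OA condylar cartilage. In both zones every OA library had a higher ratio than every control library. On the log2 scale the superficial zone ratio was −0.47 ± 0.28 (SD, n = 3) for control and 0.61 ± 0.26 (n = 2) for OA, a difference of 1.08, and the condylar cartilage ratio was 0.22 ± 0.21 (n = 3) for control and 0.96 ± 0.02 (n = 2) for OA, a difference of 0.74. Within 1 zone the exact permutation p was 0.1, the smallest that 10 arrangements allow. The mean difference over the zones was 0.91, a 1.88-fold higher ratio in OA, with a two-sided exact permutation p of 0.01 within zones, which is the smallest that the 100 arrangements allow. The ratio was the only one of its kind tested and was chosen after its values were seen, so its p is not independent of that choice. With the groups fully apart in both zones, the p could only be the smallest, and it adds nothing to that separation. How many other pairs of genes separate in this way was not counted. The difference was 0.77 without control condylar cartilage 3 and OA superficial zone 1, which leaves 1 OA sample in the superficial zone.

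**Figure D2:**
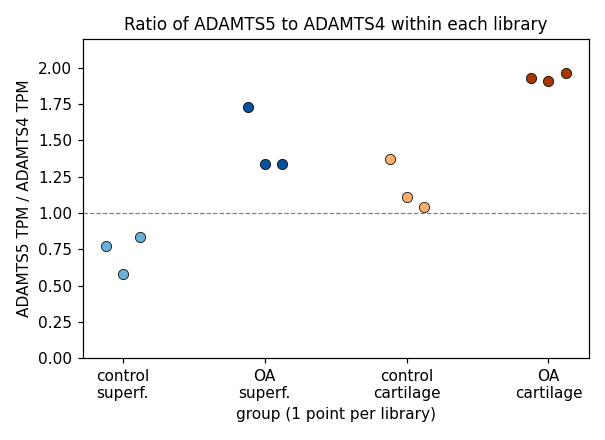
TPM of ADAMTS5 divided by TPM of ADAMTS4 in each of the 12 libraries (vertical axis from 0), by group, with a dashed line at a ratio of 1. The control superficial zone libraries lie between 0.579 and 0.832, the other groups above 1, and in each zone the OA libraries lie above the control libraries.

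Of the versican-cutting enzymes, ADAMTS1 was at 81.9, 78.0 and 72.2 CPM in the control superficial zone and at 86.8, 98.0 and 107 CPM in the OA superficial zone. It was at 50.3, 36.5 and 35.8 CPM in the control condylar cartilage and at 39.8, 37.5 and 49.3 CPM in the OA condylar cartilage. All superficial zone libraries lay above all condylar cartilage libraries. ADAMTS9 was at 98.5, 65.3 and 100.3 CPM in the control superficial zone and at 78.9, 152.5 and 147 CPM in the OA superficial zone. It was at 159, 92.0 and 252 CPM in the control condylar cartilage, where library 3 was highest, and at 134, 137 and 134 CPM in the OA condylar cartilage. Its groups overlapped in both zones.

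Of the procollagen-trimming enzymes, ADAMTS2 was at 328, 238 and 162 CPM in the control superficial zone and at 487, 225 and 227 CPM in the OA superficial zone. It was at 243, 196 and 392 CPM in the control condylar cartilage and at 182, 170 and 191 CPM in the OA condylar cartilage. Both libraries that went against their labels had the highest ADAMTS2 of their group. ADAMTS3 was at 28.4, 34.9 and 48.7 CPM in the control superficial zone and at 26.1, 71.6 and 74.2 CPM in the OA superficial zone. It was at 102, 113 and 54.5 CPM in the control condylar cartilage and at 58.3, 59.5 and 70.9 CPM in the OA condylar cartilage. Here the same 2 libraries had the lowest value of their group.

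Of the others, ADAMTS6 was at 54.1, 75.5 and 70.8 CPM in the control superficial zone and at 46.2, 91.2 and 93.5 CPM in the OA superficial zone. It was at 151, 108 and 98.8 CPM in the control condylar cartilage and at 89.5, 94.7 and 162 CPM in the OA condylar cartilage, so that its control groups did not overlap between zones. ADAMTS12 was at 50.4, 37.3 and 52.2 CPM in the control superficial zone and at 29.2, 126 and 126 CPM in the OA superficial zone, where library 1 lay below all controls and libraries 2 and 3 above them. It was at 29.3, 20.5 and 47.3 CPM in the control condylar cartilage and at 26.1, 25.8 and 35.0 CPM in the OA condylar cartilage. ADAMTS16 was at 8.28, 4.41 and 3.29 CPM in the control superficial zone and at 39.7, 26.8 and 31.5 CPM in the OA superficial zone. In the condylar cartilage ADAMTS16 rested on few reads, with 1, 2 and 15 counts in control (0.149, 0.143 and 1.65 CPM) and 30, 34 and 9 counts in OA (1.64, 1.83 and 0.597 CPM). ADAMTS16 was lower in every condylar cartilage library than in every superficial zone library.

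The first comparison asked which of these genes differed between OA and control in the superficial zone. All 9 had a positive log2 fold change, with a median of 0.41 against 0.05 over all genes, and none passed the test (edgeR quasi-likelihood test, Benjamini-Hochberg adjusted p = 0.193 to 0.954). Over all genes 0.0208% of the 14438 tested passed. The count of positive values depended on the scaling: with library totals only, ADAMTS4 (−0.24) and ADAMTS6 (−0.14) were negative, beside a median of −0.24 over all genes, and the mean TPM of 5 of the 9 (ADAMTS1, ADAMTS2, ADAMTS4, ADAMTS6 and ADAMTS9) was lower in OA than in control. ADAMTS16 had the largest change, 2.69 ± 0.72 (SE), 6.47-fold (edgeR adjusted p = 0.193), and ADAMTS5 followed with 1.22 ± 0.33 (edgeR adjusted p = 0.198). Both had an unadjusted p under 0.05, as did 11.1% of all genes, and ADAMTS16, ADAMTS5 and ADAMTS1 were the 3 genes whose groups did not overlap upwards, as was so for 12.3% of all genes. ADAMTS12 had 0.74 ± 0.53, ADAMTS2 0.56 ± 0.43, ADAMTS3 0.41 ± 0.45, ADAMTS9 0.38 ± 0.43, ADAMTS1 0.29 ± 0.28, ADAMTS4 0.11 ± 0.34 and ADAMTS6 0.06 ± 0.38. The sizes of the largest changes depended on the scaling too: with library totals only, ADAMTS16 was 2.37 and ADAMTS5 0.83. Mean TPM was 12.5 in OA and 2.75 in control for ADAMTS16, and 13.2 and 8.98 for ADAMTS5.

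In the same comparison DESeq2 called 1 of the 9, ADAMTS16 (2.74, adjusted p = 0.0135), while limma-voom with sample weights and the fit of 12 separate libraries called 0. ADAMTS16 also passed in edgeR without control condylar cartilage 3 (adjusted p = 0.0449) and with only the groups compared (adjusted p = 0.0457). Without both libraries that went against their labels it passed with 2.42 (adjusted p = 0.0424) and ADAMTS12 with 1.39 (adjusted p = 0.0438), while ADAMTS5 was 0.68 (adjusted p = 0.317), a fit that rests on 1 OA sample in this zone, which was assumed to vary like the other groups. Without OA superficial zone 1 alone, ADAMTS5 was 0.72 and ADAMTS12 1.43, again with 1 OA sample and the spread of the other groups, and neither passed. In TPM, ADAMTS16 and ADAMTS5 also did not overlap between OA and control, and ADAMTS1 did overlap. ADAMTS4 was lower in all 3 OA libraries (7.89 to 9.503 TPM), of which libraries 2 and 3 are a close pair, than in all 3 controls (10.7 to 14.8 TPM). The share of all genes without overlap in TPM was not counted. Markers of other cells were summed as well. The 6 of 8 skeletal muscle markers in the table came to 2186 and 2230 TPM in OA libraries 2 and 3, the close pair. They came to 172 TPM in OA library 1 and to 19.9 to 270 TPM in control, so the groups overlapped. The 9 of 9 neutrophil and marrow markers did not overlap, at 45.2 to 367 TPM in OA and 4.02 to 15.8 TPM in control, with MMP8 at 0 in all control libraries. The part of these markers in the ADAMTS values was not tested, and in bulk tissue fewer cells of a type and less RNA per cell cannot be told apart.

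**Figure D3:**
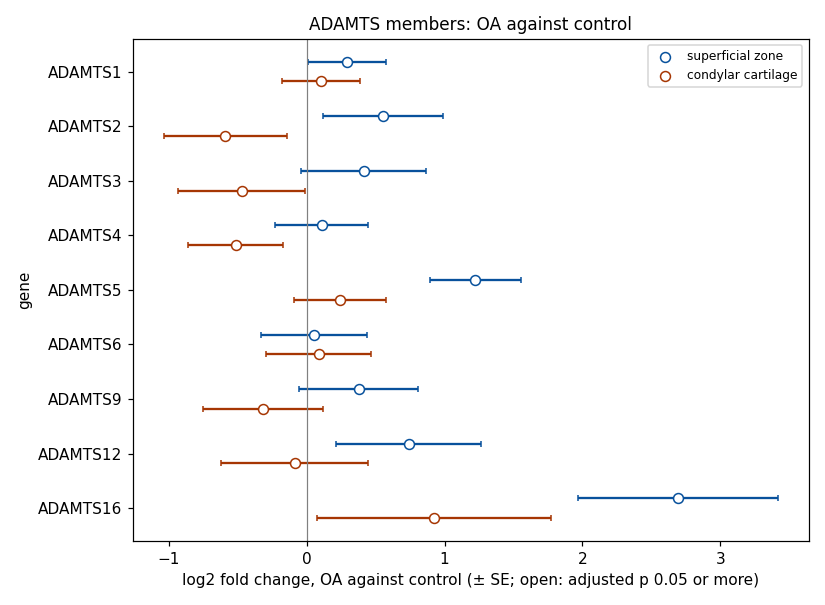
Log2 fold change of OA against control (horizontal axis, ± SE) for the 9 ADAMTS genes in the superficial zone and in the condylar cartilage (edgeR). All points are open because none had an adjusted p under 0.05. In the superficial zone the values run from 0.06 for ADAMTS6 to 2.69 for ADAMTS16, and in the condylar cartilage from −0.59 for ADAMTS2 to 0.92 for ADAMTS16.

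The same question in the condylar cartilage gave 4 positive and 5 negative log2 fold changes, with a median of −0.09 against −0.03 over all genes. None of the 9 passed (edgeR adjusted p = 0.746 to 0.986), where 0.866% of all genes did, and 0 had an unadjusted p under 0.05, as 9.25% of all genes did. DESeq2, limma-voom and the fit of 12 separate libraries also called 0. ADAMTS4 was −0.52 ± 0.34 and ADAMTS2 −0.59 ± 0.45, and these were the 2 genes whose OA samples lay below all controls, as was so for 16.5% of all genes. ADAMTS16 was 0.92 ± 0.85, and without control condylar cartilage 3, which held 15 of the control counts, 3.01 (edgeR adjusted p = 0.127). ADAMTS5 was 0.24 ± 0.33, ADAMTS1 0.11 ± 0.28, ADAMTS6 0.09 ± 0.38, ADAMTS12 −0.09 ± 0.53, ADAMTS9 −0.32 ± 0.44 and ADAMTS3 −0.47 ± 0.46. In TPM the ADAMTS5 groups only just did not overlap, with 13.68 to 14.27 in OA and 10.07 to 13.56 in control, while in CPM they overlapped. The share of all genes without overlap in TPM was not counted. The neutrophil and marrow markers summed to 2656 to 9339 TPM in OA and 1.72 to 57.2 TPM in control, and the erythroid markers (5 of 7 in the table) to 309 to 1115 and 7.16 to 35.4 TPM, with AHSP and RHAG at 0 in control libraries 1 and 2. Skeletal muscle markers (6 of 8 in the table) summed to 3196 TPM in control condylar cartilage 3, the library whose removal moved ADAMTS16, against 8.77 and 19.3 TPM in the other controls and 32.4 to 92.1 TPM in OA. The part of these markers in the ADAMTS values was not tested.

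A direct test of whether the OA effect differed between zones called none of the 9 (edgeR adjusted p = 0.587 to 0.987), as it called 0% of all genes, and 0 had an unadjusted p under 0.05, as 8.76% of all genes did. DESeq2, limma-voom and 12 separate libraries called 0 as well. The effect was lower in the condylar cartilage for 8 of the 9 genes, with a median difference of −0.83 against −0.02 over all genes. With library totals only, which moved the median over all genes to 0.50, ADAMTS1 (0.33) was positive too. ADAMTS16 had a difference of −1.77 ± 1.14, ADAMTS2 −1.15 ± 0.62 and ADAMTS5 −0.98 ± 0.48. The ADAMTS16 difference was 0.60 without both libraries that went against their labels, where the control condylar cartilage held only the libraries with 1 and 2 counts.

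The zones themselves were compared next, as condylar cartilage against superficial zone. Averaged over control and OA, ADAMTS16 and ADAMTS1 were lower in the condylar cartilage and passed the test. ADAMTS16 had a log2 difference of −3.93 ± 0.60, 15.3-fold (edgeR adjusted p = 0.00151), and ADAMTS1 one of −1.01 ± 0.20, 2.02-fold (edgeR adjusted p = 0.00624). Both were lower in 6 of 6 condylar cartilage libraries than in any superficial zone library, with the libraries of the close pairs counted separately. The share of all genes with this pattern was not counted. Within control alone 15.8% of all genes were lower with no overlap, and within OA alone 28.1%. The genes that passed are 2 of 9, with 10.9% of all genes lower and 6.84% higher. Of the 9, 6 had an unadjusted p under 0.05, as did 32.7% of all genes. Both passed under all 20 alternatives run, with log2 differences of −4.97 to −3.64 for ADAMTS16 and −1.10 to −0.92 for ADAMTS1. Osteoblast and osteocyte markers (7 of 7 in the table) summed to 5728 to 15770 TPM in the condylar cartilage and 394 to 1291 TPM in the superficial zone, and their part in these zone differences was not tested.

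Of the other 7 genes in the averaged zone comparison, ADAMTS6 (0.85 ± 0.27, edgeR adjusted p = 0.0517), ADAMTS3 (0.83 ± 0.32) and ADAMTS9 (0.58 ± 0.31) had higher values in the condylar cartilage and did not pass. ADAMTS12 (−0.94 ± 0.38), ADAMTS4 (−0.62 ± 0.24), ADAMTS2 (−0.38 ± 0.31) and ADAMTS5 (−0.12 ± 0.24) had lower values and did not pass either (edgeR adjusted p = 0.100 to 0.756 for the 6 after ADAMTS6). ADAMTS6 passed in DESeq2 (adjusted p = 0.0134), in edgeR with 12 separate libraries (0.0399), with median-of-ratios factors (0.0424), and without control condylar cartilage 3 (0.0447) or OA condylar cartilage 1 (0.0483). ADAMTS12 passed with 12 separate libraries (edgeR adjusted p = 0.0259), ADAMTS4 with 12 separate libraries (0.0398) and ADAMTS3 in DESeq2 (0.0485). The fit of 12 separate libraries counted the libraries of each close pair as separate samples. Without OA superficial zone 1, which leaves 1 sample in that group, ADAMTS12 was −1.29. Without both libraries that went against their labels, again with 1 sample there, ADAMTS12 was −1.46. In that fit ADAMTS6 was 0.73, ADAMTS3 0.70, ADAMTS9 0.20, ADAMTS4 −0.57, ADAMTS2 −0.19 and ADAMTS5 0.085.

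**Figure D4:**
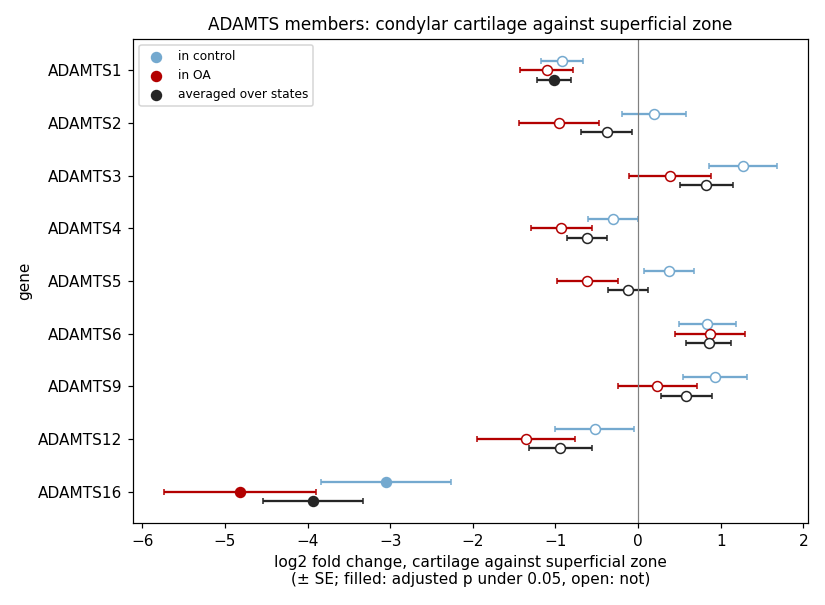
Log2 fold change of condylar cartilage against superficial zone (horizontal axis, ± SE) for the 9 ADAMTS genes, in control, in OA and averaged over both (edgeR). Filled points had an adjusted p under 0.05. ADAMTS16 lies between −4.82 and −3.05 and ADAMTS1 between −1.11 and −0.92, while ADAMTS3, ADAMTS6 and ADAMTS9 lie above 0 in all 3 comparisons.

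Within control joints alone, 1 of the 9 passed, ADAMTS16 with −3.05 ± 0.78 (edgeR adjusted p = 0.0366), where 4.27% of all genes were lower and 3.22% higher. It passed no longer without any 1 of control superficial zone 1, 2 or 3 (adjusted p = 0.128, 0.0855 and 0.0514) or of control condylar cartilage 1 or 2 (0.137 and 0.105), and without control condylar cartilage 3 the value was −5.12 (0.00267). ADAMTS1 (−0.92 ± 0.26, edgeR adjusted p = 0.0532), ADAMTS3 (1.27 ± 0.41, 0.098), ADAMTS6 (0.84 ± 0.35, 0.209) and ADAMTS9 (0.93 ± 0.39, 0.219) also had an unadjusted p under 0.05, as 18.6% of all genes did. ADAMTS12 was −0.53 ± 0.48, ADAMTS5 0.37 ± 0.30, ADAMTS4 −0.30 ± 0.30 and ADAMTS2 0.19 ± 0.39. ADAMTS3 and ADAMTS6 were higher and ADAMTS1 and ADAMTS16 lower in the condylar cartilage with no overlap, against 12.6% and 15.8% of all genes. ADAMTS3 passed without control condylar cartilage 3 (1.53, adjusted p = 0.0441) and without OA superficial zone 1 (adjusted p = 0.0248), and ADAMTS1 passed without OA superficial zone 1 (adjusted p = 0.0164).

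Within OA joints, again only ADAMTS16 passed of the 9, with −4.82 ± 0.92 (edgeR adjusted p = 0.0154), where 4.1% of all genes were lower and 2.38% higher. Its adjusted p was 0.0513 with only the groups compared and 0.133 without OA condylar cartilage 3. ADAMTS1 was −1.11 ± 0.31 (edgeR adjusted p = 0.0598), ADAMTS12 −1.35 ± 0.59 and ADAMTS4 −0.93 ± 0.37, all with an unadjusted p under 0.05, as 27.5% of all genes had. ADAMTS2 was −0.96 ± 0.48, ADAMTS5 −0.61 ± 0.37, ADAMTS6 0.87 ± 0.42, ADAMTS3 0.38 ± 0.50 and ADAMTS9 0.23 ± 0.47. Without OA superficial zone 1, ADAMTS12 was −2.05 (edgeR adjusted p = 0.0293) and ADAMTS1 −1.23 (0.0424). Leaving out OA condylar cartilage 3 or OA superficial zone 1 leaves 1 sample in that OA group, which was assumed to vary like the other groups. In CPM 5 genes, ADAMTS1, ADAMTS2, ADAMTS4, ADAMTS5 and ADAMTS16, were lower in the condylar cartilage with no overlap, as were 28.1% of all genes. In TPM ADAMTS5 was instead higher there and only just did not overlap (13.68 to 14.27 against 12.65 to 13.64). The share of all genes without overlap in TPM was not counted.

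The rest of the family, a list of 17 ADAMTS and ADAMTS-like genes with papilin, had 11 members in the table. None passed between OA and control in either zone or for the difference between zones. In the superficial zone 10 of the 11 had a positive OA effect (median 0.60 against 0.05 over all genes), led by ADAMTS15 (2.35 ± 0.67, edgeR adjusted p = 0.228), a protease of aggrecan and versican. ADAMTS18, the closest relative of ADAMTS16, was the negative one (−1.05 ± 0.46). That count depended on the scaling: the mean TPM of ADAMTS7, ADAMTS10, ADAMTS14 and ADAMTS17, besides ADAMTS18, was lower in OA than in control. In the condylar cartilage 8 of the 11 were negative (median −0.46), with ADAMTS14, another procollagen-trimming enzyme, lowest at −1.14 ± 0.38 (edgeR adjusted p = 0.306).

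Between zones, averaged over control and OA, 5 of the 11 were lower in the condylar cartilage and 1 higher, where 10.9% of all genes were lower and 6.84% higher. ADAMTS8, which also cuts aggrecan, was lower (−3.70 ± 0.51, edgeR adjusted p = 0.000771), as were ADAMTS15 (−3.43 ± 0.55), papilin PAPLN (−2.14 ± 0.37) and the ADAMTS-like genes ADAMTSL3 (−2.76 ± 0.38) and ADAMTSL4 (−1.94 ± 0.29), which have no protease domain. ADAMTS14 was higher (1.43 ± 0.27, edgeR adjusted p = 0.00446), at 289 ± 65.8 CPM (n = 3) in the control condylar cartilage and 63.6 ± 16.5 CPM (n = 3) in the control superficial zone. ADAMTS7 (−0.51 ± 0.29), ADAMTS10 (−0.31 ± 0.33), ADAMTS17 (0.01 ± 0.40), ADAMTS18 (−0.97 ± 0.31) and ADAMTSL1 (−0.52 ± 0.37) did not pass. Of the 11, 3 were lower and 1 higher in control joints alone (4.27% and 3.22% of all genes), and 5 lower and 0 higher in OA joints alone (4.1% and 2.38% of all genes). ADAMTS18 was at 198 ± 133 TPM (n = 3) in the control superficial zone, more than any of the 9 genes had there, though its 3 libraries ranged from 95.1 to 348 TPM.

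**Figure D5:**
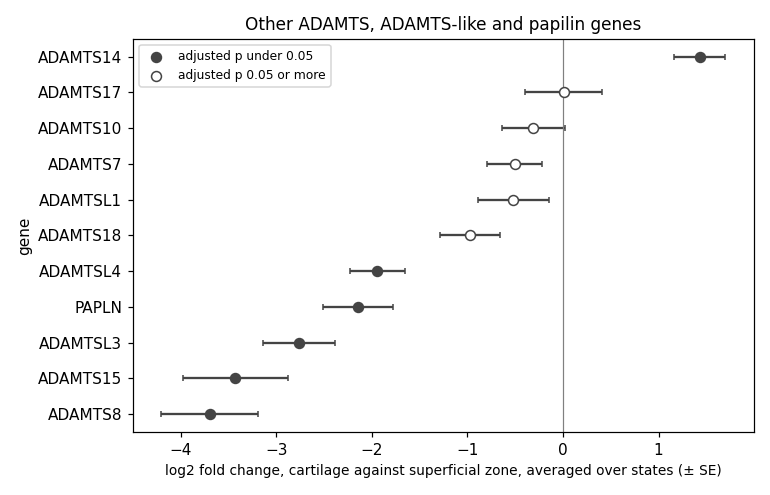
Log2 fold change of condylar cartilage against superficial zone, averaged over control and OA (horizontal axis, ± SE, edgeR), for the 11 other family genes in the table. Filled points had an adjusted p under 0.05: 5 genes from ADAMTS8 (−3.70) to ADAMTSL4 (−1.94) lie below 0 and ADAMTS14 (1.43) above it.

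The partners of these proteases were read from lists of their substrates, inhibitors and inducers. In none of the 5 lists did a gene pass between OA and control in either zone, or for the difference between zones. For their zone comparisons the shares of all genes are those given for the family. Of the aggrecanase substrates (3 of 6 in the table), aggrecan ACAN had 0.63 ± 1.00 in the superficial zone and −0.86 ± 1.04 in the condylar cartilage, versican VCAN 0.92 ± 0.61 and 0.45 ± 0.61, and the link protein HAPLN1 −1.27 ± 1.04 and −1.33 ± 1.04. None of the 3 passed between zones. Of the procollagens (5 of 6 in the table) COL3A1 was lower in the condylar cartilage in the averaged comparison (−2.23 ± 0.36, edgeR adjusted p = 0.00183), in control (−2.04 ± 0.44) and in OA (−2.41 ± 0.55).

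Of the inhibitors, activating proteases and clearance genes (9 of 11 in the table), TIMP3, the inhibitor of the aggrecanases, was lower in the condylar cartilage over both states (−1.40 ± 0.36, edgeR adjusted p = 0.0208). Its relative TIMP1 (1.17 ± 0.25) and the proprotein convertase PCSK5 (1.14 ± 0.21) were higher. In control joints TIMP1, PCSK5 and PCSK6, a convertase that can activate aggrecanases, were higher and none lower, and in OA joints none passed. Of the inducers (6 of 11 in the table) the interleukin receptor IL1R1 (1.22 ± 0.22) and RUNX2 (1.08 ± 0.25) were higher and TNFRSF1A (−0.90 ± 0.21) lower in the averaged comparison. IL1R1 passed in control, and RUNX2 (higher) and TNFRSF1A (lower) in OA.

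Of the 8 other matrix proteases, all in the table, 3 were higher and 4 lower in the condylar cartilage over both states, where 6.84% of all genes were higher and 10.9% lower. Of the 4 with the smallest p, the collagenase MMP13 (3.64 ± 0.40, edgeR adjusted p = 0.000284) and the bone-resorbing cathepsin CTSK (1.72 ± 0.26) were higher, and the collagenase MMP1 (−3.79 ± 0.58) and the gelatinase MMP2 (−1.75 ± 0.27) were lower. In control joints 3 passed in each direction, and in OA joints MMP13 was higher and MMP1 and MMP2 lower. Osteoclast markers (4 of 6 in the table) summed to 648 to 1230 TPM in the condylar cartilage and 121 to 270 TPM in the superficial zone, and their part in these values was not tested.

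Genes with the most similar pattern to each member were found by Pearson's r of log2(CPM + 1) over the 10 samples, which share groups and libraries, so the values are a description. ADAMTS16 was closest to the carboxypeptidase gene SCPEP1 (0.990), GPRC5A (0.985) and MAMDC2 (0.983). ADAMTS1 was closest to the noradrenaline transporter SLC6A2 (0.965), the growth factor receptor EGFR (0.957) and TLCD5 (0.957). Each of the other 7 genes had different nearest genes, so that no gene stood among the 3 closest of more than 1 member.

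ADAMTS5 was closest to the lysosomal gene CTSA (0.963), then IQCC (0.949) and DPYSL5 (0.946). ADAMTS4 was closest to the kinesin KIF1C (0.971), RAB40B (0.969) and APH1A (0.960). ADAMTS1 and ADAMTS5 are neighbours on 1 chromosome of the RefSeq assembly, with 0 protein-coding genes between them, and their nearest genes by pattern did not coincide. ADAMTS2 was closest to RUSF1 (0.967), TBC1D20 (0.964) and ATP6AP1 (0.961), and ADAMTS3 to ST8SIA1 (0.957), NDUFA6 (0.955) and the laminin LAMA4 (0.953). For ADAMTS6 they were GPR137B (0.961), USP53 (0.958) and OXR1 (0.957), for ADAMTS9 ZBTB38 (0.965), DDI1 (0.950) and DLST (0.940), and for ADAMTS12 the lysosomal sulfatase IDS (0.927), SPTBN1 (0.925) and APP (0.924).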

How the data were processed

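Genes of the ADAMTS family were read from 12 bulk RNA-seq libraries. Per the labels' protocols, ribosomal RNA was depleted and directional libraries were made. Per the submitters' processing notes, the tools were STAR 2.7.9a, Salmon 1.1.0, StringTie 2.1.0, MultiQC 1.13, Trim Galore 0.6.7 and DESeq2 1.26.0 with the OryCun2.0 genome, in roles not given in the sources used here. The authors deposited estimated counts in whole numbers, TPM that sum to 1000000 per library, and log2 TPM, which the results do not use. Feature lengths were Salmon's, per the file headers, which call the counts both normalised and raw. Count totals differ, so they were used as raw. Symbols are those of the deposited table, or of a RefSeq table (mOryCun1.1) where blank.

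Counts were tested with edgeR 4.0.16 (R 4.3.3): quasi-likelihood F test, TMM factors, filterByExpr with a minimum count of 10, 1 model of 4 groups, 14438 genes tested, Benjamini-Hochberg adjustment over all of them within each of 6 comparisons, threshold 0.05. The SE is the absolute log2 fold change over the square root of F. DESeq2 1.42.0 and limma 3.58.1 were alternatives. Near-duplicate libraries were summed, which left 10 samples, and their libraries share a TMM factor in the CPM shown. As a check of the code, the fit was run on simulated counts with changes set in the OA superficial zone only. Those counts did not carry the spread of single genes or libraries that stand apart. All 9 members were named in every comparison, with the 3 genes of most similar pattern for each. Genes of the 6 lists were named where they passed (at most 4 per list), and every gene of the other ADAMTS list was named. ACAN, VCAN and HAPLN1 were named as well after their values were seen. Members and lists were chosen with earlier results of these data known. The labels do not say whether libraries with the same replicate number share an animal. Deviations of same-numbered libraries from their group means correlated from −0.30 to 0.33, which cannot decide it. ADAMTS genes are paralogs that could share reads, and protein or promoter sequences were not used here. Each library's precision is limited by its depth, and with 2 or 3 samples a group only large differences can pass.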

Additional observations from a re-analysis of the deposited data

How the results depend on the processing

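Of 1116 log2 fold changes of the 9 genes under up to 21 alternatives (54 results), 1015 kept their direction and side of the threshold, 47 changed sign, 47 passed only under the alternative and 7 passed only as reported. ADAMTS1 and ADAMTS16 in the averaged zone comparison passed under every alternative run. The number of the 9 past the test in the superficial zone between OA and control was 1 with DESeq2, 1 with only the groups compared, and 2 without the 2 libraries that went against their labels. Between zones in control it was 2 with 12 separate libraries, 3 with DESeq2, 5 with limma-voom, 2 with library totals only, 5 without the 2 libraries and 3 with only the groups compared. Between zones in OA it was 4 with 12 separate libraries, 2 with DESeq2, 3 without the 2 libraries and 0 with only the groups compared. Averaged over states it was 5 with 12 separate libraries, 4 with DESeq2 and 5 without the 2 libraries. With 1 library left out the number ranged from 0 to 1 between OA and control in the superficial zone, 0 to 3 between zones in control, 0 to 3 in OA and 2 to 3 averaged, and was 0 in the condylar cartilage and for the difference between zones. The causes were not tested. The fit of 12 separate libraries counted the libraries of each close pair as separate samples.

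The labels do not say whether same-numbered libraries share an animal. With 12 separate libraries and the replicate block the number past the test was 2 between zones in control, 3 in OA and 4 averaged, and ADAMTS6 was −0.12 for OA in the condylar cartilage and −0.30 for the difference between zones.

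The other changes of sign were in values that did not pass. Without the 2 libraries these were ADAMTS2 (−0.14) and ADAMTS4 (−0.21) for OA in the superficial zone, ADAMTS6 (−0.042), ADAMTS9 (0.093) and ADAMTS12 (0.29) for OA in the condylar cartilage, ADAMTS6 (−0.47) and ADAMTS16 (0.60) for the difference, and between zones ADAMTS2 in control (−0.13), ADAMTS3 (−0.13) and ADAMTS9 (−0.11) in OA and ADAMTS5 averaged (0.085). With library totals only, which moved the median of all genes from 0.05 to −0.24 for OA in the superficial zone, from −0.03 to 0.23 in the condylar cartilage and from −0.02 to 0.50 for the difference, they were ADAMTS4 (−0.24) and ADAMTS6 (−0.14), ADAMTS12 (0.17), ADAMTS1 (0.33), and ADAMTS2 between zones in control (−0.067). With limma-voom they were ADAMTS6 (−0.15) in the superficial zone, ADAMTS1 (−0.10), ADAMTS6 (−0.21) and ADAMTS12 (0.028) in the condylar cartilage and ADAMTS6 (−0.062) for the difference. ADAMTS6 was −0.0529 in the condylar cartilage and −0.26 for the difference with 12 separate libraries, and for the difference −0.0029 with DESeq2 and −0.0020 with median-of-ratios factors.

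With 1 library left out, values spanned 0 for OA in the superficial zone for ADAMTS2 (−0.10 to 0.77), ADAMTS4 (−0.17 to 0.14) and ADAMTS6 (−0.11 to 0.47). In the condylar cartilage they did so for ADAMTS1 (−0.056 to 0.28), ADAMTS6 (−0.35 to 0.29), ADAMTS9 (−0.61 to 0.10) and ADAMTS12 (−0.33 to 0.29), and for the difference for ADAMTS6 (−0.38 to 0.23) and ADAMTS16 (−2.34 to 0.31). Between zones they did so for ADAMTS2 in control (−0.14 to 0.43), ADAMTS3 (−0.17 to 0.40) and ADAMTS9 (−0.15 to 0.27) in OA and ADAMTS5 averaged (−0.19 to 0.13). Depth limits ADAMTS16 in the condylar cartilage, at 1 to 34 counts a library.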
